A study of Mus musculus with 7 samples.

Results

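The genes described here lie on the distal end of mouse chromosome 11. They are the genes whose start is at or beyond 100 Mb (mm10) and that had at least 50 allele-assigned fragments in each of the 7 libraries. Of 437 chromosome 11 genes annotated beyond 100 Mb, 177 met both limits, against 22556 genes in the files and 9197 with the same depth anywhere in the genome. The other 260 were too thinly covered: 10 had no fragment at all, 20 had no allele-assigned fragment, and 64 reached the depth in some libraries but not in all. The members were thus chosen by measured depth, so their level is a description only, and the position limit was set with the allelic profile of these libraries known, so counts over the members describe this stretch and do not test it.

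The libraries are chromatin-associated RNA sequencing (ChrRNA-seq), which reads RNA still attached to chromatin and is therefore rich in unspliced transcripts. The cells are undifferentiated female mouse embryonic stem cells (mESCs) with 1 chromosome set from strain 129 (Mus musculus domesticus, "Dom") and 1 from Mus musculus castaneus ("Cast"). In iXist-ChrX-Dom a TetOn promoter replaced the Xist promoter on the Dom X (4 libraries), and in iXist-ChrX-Cast the same was done on the Cast X (3 libraries). The Dom genome is that of 129/Sv and the Cast genome that of CAST/EiJ. All 7 libraries came from cells kept in 1 µg/mL doxycycline for 10 days, so no uninduced control is included, and each line is 1 clone. The sample descriptions of iXist-ChrX-Dom replicates 3 and 4 carry a day 1 label, whereas their titles and induction time give day 10, which was followed. In iXist-ChrX-Cast the files of replicates 1 and 2 name a clone 1 character off the one in the labels, and the labels were followed. Nothing in the labels says that replicates came from separate cultures. The paper calls the 4 iXist-ChrX-Dom libraries replicate experiments and the 3 iXist-ChrX-Cast libraries replicates. The p-values below measure the spread between these libraries, and how much of it is technical was not tested.

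Sequence differences between the parental genomes let a fragment be assigned to the Cast or the Dom copy of a gene. The Cast share is the percentage of allele-assigned fragments that came from Cast, and it reports the balance of the alleles, whereas the total level reports their sum. The distal end of chromosome 11 is a gene-dense block of mostly broadly used genes, among them Stat3, which carries the LIF signal that keeps mESCs undifferentiated. Mouse ES cell lines are known to gain whole or partial chromosomes during culture, and RNA was the only molecule measured here.

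The promoters of members on which the results turn are shown here because these genes moved together, and those of Med1 and Cdk12 because the profile turned between these neighbours. Each run is the 250 bases upstream of the RefSeq start (GRCm38.p6), 5′ to 3′ on the strand of the gene, with every CG dinucleotide in capitals. The RefSeq start of Med1 lies 387 bases inside the gene as the files place it, so the Med1 window falls within the span given for it below, and the other windows begin within 29 bases of the start in the files. The windows were chr11:98192907-98193156 (minus strand, Med1), chr11:98203055-98203304 (plus, Cdk12), chr11:100939541-100939790 (minus, Stat3), chr11:104442292-104442541 (minus, Kansl1), chr11:116490347-116490596 (minus, Prpsap1) and chr11:120437701-120437950 (minus, Nploc4).
Med1: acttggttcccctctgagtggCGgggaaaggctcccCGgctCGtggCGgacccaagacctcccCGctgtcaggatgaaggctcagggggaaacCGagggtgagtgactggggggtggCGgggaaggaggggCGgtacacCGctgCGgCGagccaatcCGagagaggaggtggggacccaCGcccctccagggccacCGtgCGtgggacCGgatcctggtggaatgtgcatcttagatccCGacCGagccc
Cdk12: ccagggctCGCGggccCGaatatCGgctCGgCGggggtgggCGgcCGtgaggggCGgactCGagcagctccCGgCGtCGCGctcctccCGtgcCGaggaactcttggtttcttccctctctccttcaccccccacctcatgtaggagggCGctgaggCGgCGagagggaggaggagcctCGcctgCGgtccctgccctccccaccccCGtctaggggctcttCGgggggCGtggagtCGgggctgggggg
Stat3: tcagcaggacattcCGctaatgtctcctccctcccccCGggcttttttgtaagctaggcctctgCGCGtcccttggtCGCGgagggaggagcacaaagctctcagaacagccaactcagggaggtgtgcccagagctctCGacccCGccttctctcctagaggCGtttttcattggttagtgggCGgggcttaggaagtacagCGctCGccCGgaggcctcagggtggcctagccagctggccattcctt
Kansl1: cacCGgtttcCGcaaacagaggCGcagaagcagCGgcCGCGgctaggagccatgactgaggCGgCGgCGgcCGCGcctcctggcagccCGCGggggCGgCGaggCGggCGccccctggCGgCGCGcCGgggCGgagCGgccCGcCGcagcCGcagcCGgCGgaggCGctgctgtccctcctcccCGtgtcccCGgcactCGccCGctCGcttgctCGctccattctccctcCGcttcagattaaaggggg
Prpsap1: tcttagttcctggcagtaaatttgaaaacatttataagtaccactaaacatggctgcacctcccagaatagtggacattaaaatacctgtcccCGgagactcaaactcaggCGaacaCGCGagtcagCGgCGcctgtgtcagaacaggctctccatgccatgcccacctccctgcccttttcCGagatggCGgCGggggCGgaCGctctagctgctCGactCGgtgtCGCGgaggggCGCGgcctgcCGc
Nploc4: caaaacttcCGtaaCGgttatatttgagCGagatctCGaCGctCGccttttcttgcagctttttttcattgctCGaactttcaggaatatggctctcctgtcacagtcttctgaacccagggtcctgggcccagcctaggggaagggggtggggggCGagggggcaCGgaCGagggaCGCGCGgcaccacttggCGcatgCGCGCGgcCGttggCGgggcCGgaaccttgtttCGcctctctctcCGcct
These windows held 18, 25, 13, 36, 18 and 22 CG dinucleotides in that order. A RefSeq promoter was matched for 142 of the members, and their median was 18.5 CG in 250 bases, against 18 for 427 genes of chromosome 11 before 100 Mb and 17 for 7001 genes of the same depth. The letters TATAAA on the gene's strand within the 50 bases before the start were present in 4 of the 142 member promoters (2.82%), against 1.04% of promoters at the same depth and 3.38% of all 16595 matched promoters. None of the 6 windows above held it. A match or its absence describes these letters only.

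Levels are counts scaled to the library total (CPM) and then to the median of the reference autosomes (all autosomes but 1, 5, 8, 11, 12 and 14). Those chromosomes were set aside as unbalanced between the alleles. A small line difference and few calls on the reference are thus in part built in. Library depth ranged from 14877384 to 24309806 fragments counted in genes, and 44.2 to 46.4% of them were assigned to an allele. The median member had 201 to 468 allele-assigned fragments per library. The 8 embryonic stem cell markers checked summed to 1378 to 1692 CPM in iXist-ChrX-Dom and 1479 to 1724 CPM in iXist-ChrX-Cast. The 10 fibroblast markers, which cover the feeder cells, summed to 61.8 to 80.3 CPM and 60.1 to 67.9 CPM, with Lum at 0 in all 3 iXist-ChrX-Cast libraries. The part of feeder RNA in the results below was not tested. Replicate 3 of iXist-ChrX-Cast stood apart on chromosome 8, where its median Cast share was 50.0% against 45.2% in the lowest library of that line, and results that change without it are given with the value.

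In iXist-ChrX-Dom the Cast alleles of the members were over-represented. The median Cast share over the members was 52.9, 53.5, 50.8 and 50.7% in replicates 1 to 4 of iXist-ChrX-Dom, and 46.2, 45.8 and 46.9% in replicates 1 to 3 of iXist-ChrX-Cast. The means were 51.9% ± 1.44 (SD, n = 4) and 46.3% ± 0.594 (SD, n = 3), and no library of one line overlapped the other. The 5744 genes of the reference autosomes had medians of 46.5 to 47.2% across the 7 libraries. The member medians of iXist-ChrX-Cast lay within 1 percentage point of the reference, and those of iXist-ChrX-Dom above it. The share of members with more Cast than Dom fragments was 53.1 to 70.6% in iXist-ChrX-Dom and 25.4 to 27.7% in iXist-ChrX-Cast. A Cast excess in iXist-ChrX-Dom was not particular to the members. On chromosome 8, which is not in the reference, the median Cast share was 63.4 to 64.2% in iXist-ChrX-Dom and 45.2 to 50.0% in iXist-ChrX-Cast.

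**Figure D1:**
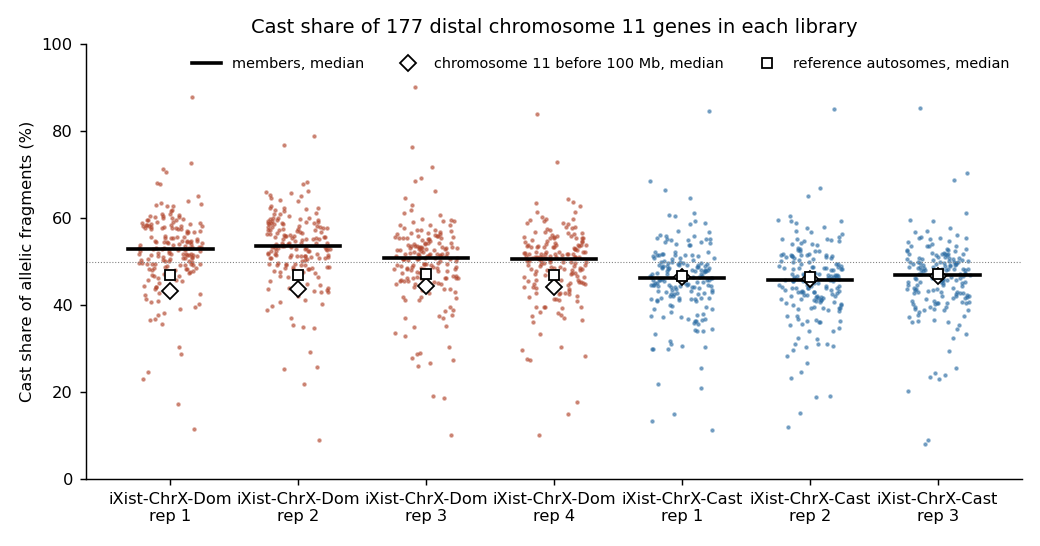
Cast share of allele-assigned fragments (percent, vertical axis) in each of the 7 libraries (horizontal axis): 1 point per member, with the member median as a bar, the median of chromosome 11 before 100 Mb as a diamond and that of the reference autosomes as a square. The member medians lie at 50.7 to 53.5% in iXist-ChrX-Dom, above both other medians, and at 45.8 to 46.9% in iXist-ChrX-Cast, where the bar, diamond and square nearly coincide.

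The rest of the chromosome went the other way in the same libraries. Over 514 genes of chromosome 11 before 100 Mb, the median Cast share was 43.2 to 44.5% in iXist-ChrX-Dom and 46.1 to 46.6% in iXist-ChrX-Cast. Per gene, the difference between the lines (iXist-ChrX-Dom minus iXist-ChrX-Cast) had a median of 5.62 percentage points over the members, −2.67 points before 100 Mb and 0.0939 points over the reference autosomes. It was above 0 for 167 of the 177 members and for 92 of the 514 genes before 100 Mb. In 79 members every iXist-ChrX-Dom library lay above every iXist-ChrX-Cast library, and in 0 members below; over all 8899 autosomal genes of this depth, 11% were separated upward and 13.2% downward.

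The difference was tested for every autosomal gene on the log2 ratio of Cast to Dom fragments with limma. At an adjusted p under 0.05, 63 of the 177 members had a higher ratio in iXist-ChrX-Dom and 0 a lower one. Across all genes tested 8.12% were called higher and 10.2% lower (18.4% in either direction), and on the reference autosomes 3.05% were called in either direction. At an unadjusted p under 0.05 the number of members was 101, where 2337 of all 8899 genes passed. With edgeR on the allelic counts 66 members were called, of which 60 were among the 63. Before 100 Mb the calls ran mostly downward, with 6 genes higher and 52 lower. The member count stayed between 46 and 61 when any 1 library was left out, where 15.1 to 20.7% of all genes were called.

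The total level and the level of each allele were compared next. Relative to the reference autosomes, the median member had a total level 1.25-fold higher in iXist-ChrX-Dom than in iXist-ChrX-Cast (0.32 on the log2 scale), and 165 of the 177 members were higher. Split by allele, the median difference was 1.41-fold for the Cast allele (log2 0.49) and 1.12-fold for the Dom allele (log2 0.16). Both alleles were thus higher in iXist-ChrX-Dom on this scale, the Cast allele more so. Measured against chromosome 11 before 100 Mb in place of the reference autosomes, the total difference was 0.20 and the Dom allele turned to −0.034, because the Dom allele there was also 1.14-fold higher, whereas the Cast allele there was 1.03-fold. On chromosome 8, relative to the reference autosomes, the total was 1.27-fold, the Cast allele 1.73-fold and the Dom allele 0.88-fold. In these bulk libraries, a moderate change in every cell and a larger change in some of the cells cannot be told apart.

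**Figure D2:**
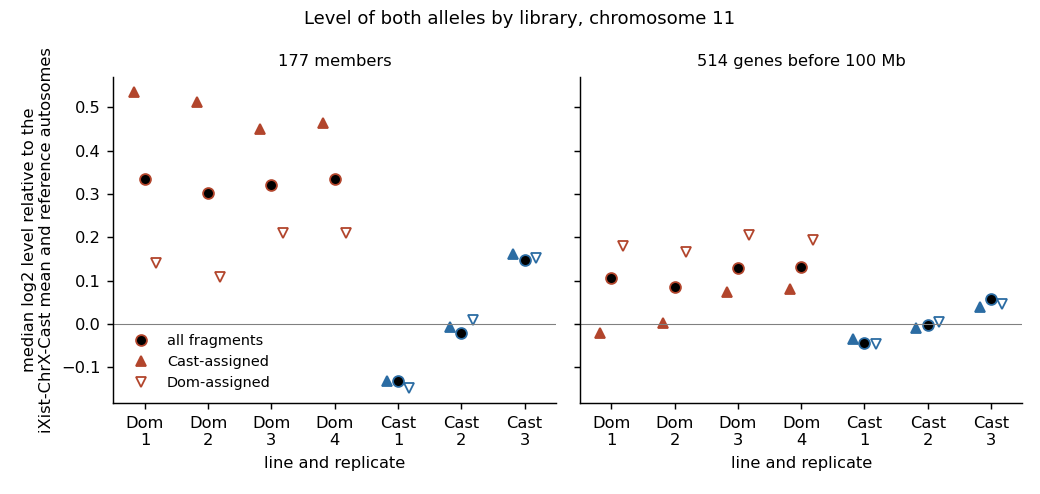
Median log2 level of the members (left) and of the 514 genes before 100 Mb (right) in each library, relative to the mean of the iXist-ChrX-Cast libraries and to the reference autosomes, for all fragments (filled circles), Cast-assigned (filled triangles) and Dom-assigned fragments (open triangles). Totals of the members reach 0.30 to 0.33 in the 4 iXist-ChrX-Dom libraries, and in iXist-ChrX-Cast they run from −0.13 in replicate 1 to 0.15 in replicate 3.

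The 4 iXist-ChrX-Dom libraries had nearly the same total level (0.30 to 0.33), whereas the 3 iXist-ChrX-Cast libraries differed. Their median total, relative to their own mean, was −0.13, −0.020 and 0.15, and both alleles moved alike (−0.13, −0.0076 and 0.16 for Cast, −0.15, 0.0092 and 0.15 for Dom). The spread within iXist-ChrX-Cast was therefore in the sum of the alleles and not in their balance. Without iXist-ChrX-Cast replicate 1 the difference in total fell to 0.23, and without replicate 3 it was 0.39. Member transcripts were richer in G and C than others, with a median of 53.3% against 49.9% before 100 Mb and 48.1% on the reference autosomes. The total difference was 0.31 after a linear trend on GC content was taken out, an alternative added after the data were seen.

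Total counts gave fewer calls than the allelic ratio. With edgeR's quasi-likelihood test, 23 members were called higher in iXist-ChrX-Dom and 0 lower at an adjusted p under 0.05, against 1.2% of all 15186 genes called higher and 1.72% lower (2.92% in either direction). At an unadjusted p under 0.05 there were 82 members, where 2638 of all 15186 genes passed. The count depended on single libraries: it was 4 without iXist-ChrX-Dom replicate 1, 1 without replicate 2 and 0 without replicate 3 or 4, 0 without iXist-ChrX-Cast replicate 1 or 2, and 55 without iXist-ChrX-Cast replicate 3. With the replicate number as a block it was 63, where iXist-ChrX-Dom replicate 4 has no partner and does not enter the difference between the lines. With the sample set (replicates 1 and 2, or 3 and 4) as a covariate, which keeps all 7 libraries, it was 75 (74 higher and 1 lower), and DESeq2 called 47. The share of all genes called rose in these fits too, from 2.92% to 11.8% with the block, 15.8% with the covariate and 7.23% with DESeq2. That share also moved when 1 library was left out. It was 1.11, 0.719, 0.371 and 0.756% without iXist-ChrX-Dom replicates 1 to 4 in turn. Without iXist-ChrX-Cast replicates 1 to 3 in turn it was 0.377, 0.117 and 7.84%. In 72 members the total level of every iXist-ChrX-Dom library exceeded every iXist-ChrX-Cast library and in 1, Notum, it was lower, against 7.47% and 8.28% of all genes tested.

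Taken allele by allele with edgeR, the calls fell on Cast. Cast-assigned counts were higher in iXist-ChrX-Dom for 69 members and lower for 0, where 8.46% of 12149 genes were called higher and 6.28% lower (14.7% in all). Dom-assigned counts were higher for 1 member, Ern1, and lower for 0, where 0.883% of 12569 genes were called higher and 3.99% lower (4.87% in all). With the replicate block these counts became 117 for Cast and 16 for Dom (13 higher and 3 lower), again without iXist-ChrX-Dom replicate 4 in the difference, and with the sample set as a covariate 115 and 23. Of all genes, 21.4% (Cast) and 9.6% (Dom) were called with the block, and 23.2% and 11.6% with the covariate. For Dom-assigned counts, 9.04% and 13% of the members were called, near the share of all genes. Nothing is therefore read from these Dom-assigned counts about the members. Leaving out iXist-ChrX-Cast replicate 1 or 2 reduced the Cast count to 43 and 36, where 12.2% and 10.8% of all genes were called. The count of Dom-assigned calls was 0 without iXist-ChrX-Dom replicate 1, 3 or 4 or iXist-ChrX-Cast replicate 1 or 2 (3.51 to 4.57% of all genes called). It was 7 without iXist-ChrX-Cast replicate 3 (7.79% of all genes called). Without iXist-ChrX-Dom replicate 2 it was 1, a member other than Ern1. At an unadjusted p under 0.05 it was 33, where 1916 of all 12569 genes passed. Of the 63 members called in the allelic ratio, 42 (66.7%) were also called in Cast-assigned counts, which is 60.9% of the 69.

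Along the chromosome the profile turned before 100 Mb. The turn lay between Med1 and Cdk12, genes chosen for mention after their values were seen and not members. Med1 encodes a Mediator subunit and spans chr11:98152154-98193293. Its Cast share was 43.4, 42.8, 47.6 and 46.0% in iXist-ChrX-Dom and 50.9, 49.9 and 44.7% in iXist-ChrX-Cast, a difference of −3.55 points in which the lines overlapped. Cdk12, which encodes a kinase of the RNA polymerase II tail and spans chr11:98203304-98253540, lay next to it. Of its fragments, 69.8, 73.4, 64.4 and 64.6% came from Cast in iXist-ChrX-Dom and 51.3, 48.8 and 48.5% in iXist-ChrX-Cast. This difference of 18.5 points was larger than that of any member (at most 13.4 points, in Rhbdf2). Whether a difference particular to Cdk12 adds to that of the stretch was not tested.

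Both alleles of Med1 were on average higher in iXist-ChrX-Dom (Cast 1.23-fold, Dom 1.42-fold), whereas Cdk12 differed on the Cast allele. The difference in its log2 ratio was 1.13 ± 0.113 (SE; limma adjusted p = 1.02e-06), and it held without any 1 library (adjusted p at most 1.92e-05). Cast-assigned fragments of Cdk12 were 197, 205, 153 and 144 CPM in iXist-ChrX-Dom and 87.8, 76.9 and 67.2 CPM in iXist-ChrX-Cast. Dom-assigned fragments were 85.4, 74.1, 84.6 and 78.8 CPM against 83.3, 80.8 and 71.4 CPM, so the lines overlapped on that allele. The Cast allele was 2.26-fold and the Dom allele 1.03-fold, and the total rose 1.59-fold (edgeR adjusted p = 0.0175, and 0.0557 to 0.126 without iXist-ChrX-Dom replicate 2 or 3 or iXist-ChrX-Cast replicate 1 or 2).

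**Figure D3:**
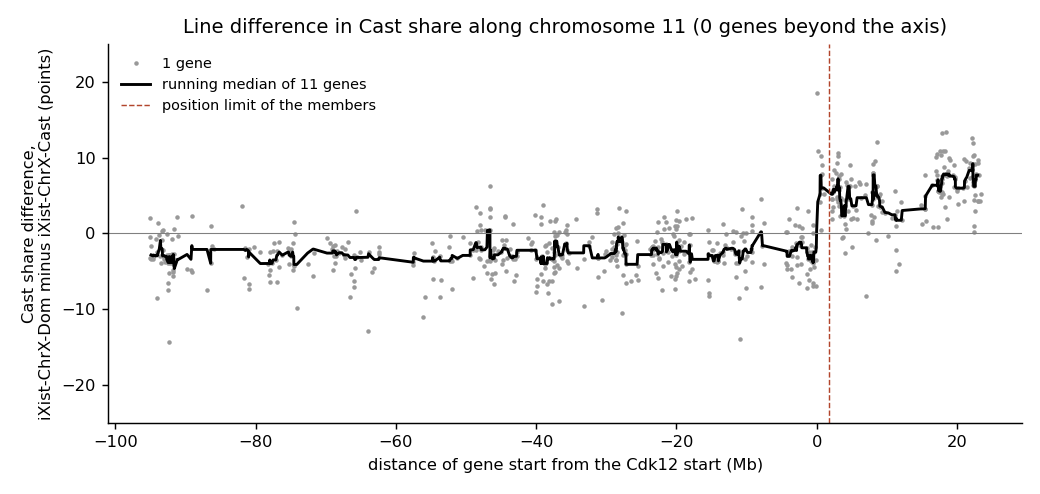
Difference in Cast share between the lines (iXist-ChrX-Dom minus iXist-ChrX-Cast, percentage points, vertical axis) for each chromosome 11 gene with the depth, against the distance of its start from that of Cdk12 (Mb). The running median of 11 genes lies below 0 nearly everywhere before Cdk12 and above 0 from there to the end of the chromosome, and the dashed line is the position limit of the members.

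Of the 11 genes of this depth from Cdk12 to the limit, 7 were separated upward, 0 downward and 4 overlapped, whereas the 3 that lie between 98 Mb and Cdk12 (Rpl19, Fbxl20 and Med1) all overlapped. Genes of this stretch outside the naming rule were picked with their values in view. Stard3, which encodes a cholesterol transport protein, had shares of 54.7, 48.1, 56.7 and 55.6% against 43.9, 43.1 and 42.0%. The 3 genes just before the limit were Rara (52.9 against 43.9%), Top2a (54.5 against 48.5%) and Smarce1 (47.2 against 42.0%). The 3 just inside it were Eif1 (39.7 against 37.8%), Hap1 (46.9 against 39.7%) and Jup (25.9 against 21.4%). At the depth limit, Tsen54, 2310003H01Rik and Hgs had exactly 50 allele-assigned fragments in their thinnest library. Pcyt2 (47), Ten1 (48) and Nkiras2 (49) fell just short, with mean Cast shares of 48.8 against 45.7%, 59.8 against 47.0% and 51.5 against 44.7%. In all 12 of these genes the mean was higher in iXist-ChrX-Dom.

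Among the members the difference was uneven. In successive blocks of 5 Mb from 100 Mb on, its median was 4.66 points over 52 members, 3.59 over 37, 3.26 over 11 (from 110 Mb), 7.23 over 49 and 7.34 over 28 (beyond 120 Mb). The members called in the allelic ratio numbered 17, 11, 1, 22 and 12 in these blocks. The low point was at 108 to 110 Mb, where 9 members had medians of 0.823 and 0.991 points per Mb block and 0 were separated. No test was made between blocks.

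The libraries of iXist-ChrX-Dom were not alike. In the fourth block, which ends at 120 Mb, the median Cast share was 56.7, 57.2, 53.1 and 52.3% in iXist-ChrX-Dom, and 47.1, 45.6 and 47.8% in iXist-ChrX-Cast. In the first block it was 51.9, 51.8, 48.9 and 49.7% against 46.3, 45.6 and 46.4%. Replicates 1 and 2 of iXist-ChrX-Dom were higher than replicates 3 and 4 in both blocks.

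**Figure D4:**
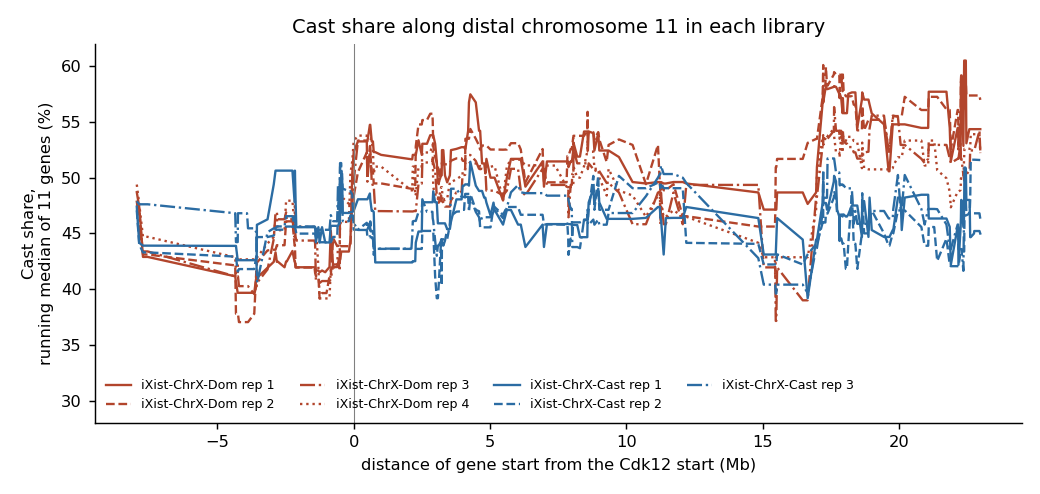
Running median of the Cast share over 11 genes (percent, vertical axis) in each library against the distance of the gene start from that of Cdk12 (Mb). The 4 iXist-ChrX-Dom lines separate from the 3 iXist-ChrX-Cast lines at Cdk12, and replicates 1 and 2 of iXist-ChrX-Dom run above replicates 3 and 4 over most of the stretch beyond.

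Within iXist-ChrX-Dom the libraries fell into 2 pairs. Replicates 1 and 2 were named in their files by one scheme and replicates 3 and 4 by another. The day 1 label in the sample descriptions falls on replicates 3 and 4 as well, while their titles give day 10. Beyond this, the labels do not say what differed. In 97 of the 177 members (54.8%) both of replicates 1 and 2 had a higher Cast share than both of replicates 3 and 4, and in 7 members (3.95%) a lower one. Over all autosomal genes of this depth the figures were 19.7% and 21.1%, and before 100 Mb they were 10.7% and 30.2%. Within iXist-ChrX-Dom the median difference in the log2 ratio of the members, replicates 3 and 4 minus replicates 1 and 2, was −0.19, against 0.0061 over all genes tested. In limma, 0 members passed an adjusted p under 0.05 in this line alone, where 0.933% of all genes did. At an unadjusted p under 0.05, 38 members passed, where 959 of all 8899 genes did. Over both lines, with the line as a covariate, the median was −0.10, 0 members were called and 1.17% of all genes were called. At an unadjusted p under 0.05, 29 members and 1158 of all 8899 genes passed. In iXist-ChrX-Cast the median share of replicate 3 was not below those of replicates 1 and 2. The difference between the lines was 0.39 on the log2 scale for totals and 0.60 for the Cast allele over replicates 1 and 2 alone. Over replicates 3 and 4, with 1 iXist-ChrX-Cast library, the values were 0.17 and 0.29.

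In total counts the members were called between the sample sets at a rate below that of all genes. With edgeR and the line as a covariate, 38 members were higher and 9 lower in replicates 3 and 4 than in replicates 1 and 2, where 16.3% of all genes were called higher and 14% lower (30.3% in all). The share of members called was 26.6%, so nothing is read from it about the members. Whether the line difference changed between sets was tested as an interaction, which called 0 members in total counts (edgeR; 28 at an unadjusted p under 0.05; 0.0132% of all genes called) and 0 in the allelic ratio (limma; 24 at an unadjusted p under 0.05; 0.371% of all genes called). The second set held 1 iXist-ChrX-Cast library, so its spread was taken from the other groups.

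The groups of members below were listed by function with earlier results of these data known. For each group, the count of members called is to be read against the background of each test given above.

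LIF signalling was represented by Stat3 and Socs3 (Stat5a, Stat5b and Grb2 did not reach the depth). Stat3 encodes the transcription factor that LIF activates, and its Cast share was 53.8, 52.8, 51.4 and 48.4% in iXist-ChrX-Dom and 45.2, 45.2 and 46.9% in iXist-ChrX-Cast. The lines did not overlap (log2 0.34 ± 0.0921, SE, limma adjusted p = 0.0155). The adjusted p was 0.0557 without iXist-ChrX-Dom replicate 1, 0.0635 without iXist-ChrX-Cast replicate 1 and 0.0646 when replicate 2 of that line was left out. Its total was 89.4, 79.0, 77.6 and 81.5 CPM against 74.7, 74.4 and 66.8 CPM, separated but not called (log2 0.20 ± 0.0947, SE, edgeR adjusted p = 0.298). Socs3 encodes the feedback inhibitor of this pathway, and its share was separated in the same direction, 51.8 to 58.9% against 47.1 to 51.0%, without being called (limma adjusted p = 0.096). The total level of Socs3 was 16.1 to 22.3 CPM in iXist-ChrX-Dom and 16.7 to 28.4 CPM in iXist-ChrX-Cast and overlapped (log2 −0.33 ± 0.186, SE, edgeR adjusted p = 0.403).

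The Wnt genes Axin2, a feedback inhibitor and target of the pathway, and Notum, a secreted enzyme that inactivates Wnt ligands, were not called in the allelic ratio, while Wnt3, Wnt9b and Fzd2 did not reach the depth. The Cast share of Axin2 was 48.5, 40.7, 44.9 and 42.1% against 37.3, 43.9 and 45.0%, and the lines overlapped. Its total was nevertheless separated, at 13.7, 15.1, 10.5 and 11.5 CPM against 7.44, 8.47 and 8.66 CPM (log2 0.65 ± 0.165, SE, edgeR adjusted p = 0.0667). That adjusted p was 0.0441 without iXist-ChrX-Cast replicate 3, 0.00686 with the replicate block and 0.00838 with DESeq2. Both alleles of Axin2 were on average higher, 1.63-fold for Cast and 1.50-fold for Dom. Notum was expressed mostly from the Dom allele in both lines, with a Cast share of 8.97 to 17.7% and 9.09 to 15.3%. It was the member with a separated lower total, 8.86 to 11.4 CPM against 11.5 to 16.3 CPM (edgeR adjusted p = 0.298).

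Of the Polycomb genes, Ezh1 and Cbx2 were members, and Cbx8 did not reach the depth. Ezh1, a methyltransferase subunit of PRC2, had a Cast share of 37.7, 44.8, 43.4 and 41.3% against 30.4, 28.3 and 36.1%. The lines did not overlap (log2 0.63 ± 0.166, SE, limma adjusted p = 0.0124, and 0.0778 without iXist-ChrX-Cast replicate 2). Cbx2, a chromodomain subunit of PRC1, was thinly covered, with 56 allele-assigned fragments in its lowest library. The shares of Cbx2, 48.1 to 57.3% and 42.5 to 53.7%, overlapped (limma adjusted p = 0.434).

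Other chromatin genes numbered 11, of which 6 were called higher in the allelic ratio (Bptf, H3f3b, Kansl1, Kat2a, Tlk2 and Ubtf), 3 in total counts (Bptf, Kansl1 and Tlk2) and 0 lower in either. Kansl1, a scaffold of the NSL acetyltransferase complex, had a Cast share of 54.7, 55.7, 51.6 and 52.2% against 47.1, 46.7 and 47.3%. The iXist-ChrX-Cast libraries lay within 1 point of each other and below all of iXist-ChrX-Dom (log2 0.38 ± 0.0608, SE, limma adjusted p = 0.000182). Cast-assigned fragments of Kansl1 were 141, 156, 151 and 149 CPM against 108, 88.5 and 93.5 CPM. Its Dom-assigned fragments, 117, 124, 141 and 136 CPM against 121, 101 and 104 CPM, overlapped. The total of Kansl1 was 1.36-fold (edgeR adjusted p = 0.0443), and it was not called without any library but iXist-ChrX-Cast replicate 3 (adjusted p 0.0724 to 0.251).

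Bptf, the large subunit of the NURF remodeller, had totals of 562, 474, 528 and 550.5 CPM against 393, 394 and 397 CPM, with iXist-ChrX-Cast tightly grouped below (log2 0.44 ± 0.0993, SE, edgeR adjusted p = 0.0472). It too lost the call without any library but iXist-ChrX-Cast replicate 3 (adjusted p 0.0588 to 0.245). Cast made up 54.9 to 58.9% of its fragments against 51.0 to 52.7% (limma adjusted p = 0.0034). Tlk2, a kinase of chromatin assembly, had totals of 409.5 to 448 CPM against 287 to 338 CPM. Ubtf, a factor of ribosomal RNA transcription, was higher in share (52.6 to 53.5% against 48.3 to 49.3%), while its total of 95.7 to 120.4 CPM overlapped 112 to 136 CPM.

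Genes of RNA processing numbered 9, with 4 called higher in share (Ddx42, Ddx5, Eftud2 and Eif4a3) and 1 in total (Sap30bp). Eftud2, the spliceosomal GTPase, had Cast shares of 54.2, 52.9, 51.5 and 51.0% against 46.6, 45.5 and 46.4% (log2 0.36 ± 0.0710, SE, limma adjusted p = 0.0013). Its total was 141 to 169 CPM against 120.1 to 125 CPM, separated but not called (edgeR adjusted p = 0.0844, and 0.0293 with the replicate block). Ddx5, an RNA helicase, had the highest level per length of the members, 118 CPM per kb of gene over all libraries. Cast fragments of Ddx5 made up 59.5, 57.9, 54.0 and 55.6% against 51.6, 52.5 and 51.7% (log2 0.28 ± 0.0705, SE, limma adjusted p = 0.00855). Eif4a3, a core protein of the exon junction complex, had 45.8 to 51.5% against 41.5 to 42.2%. Alyref, an mRNA export factor, came mostly from Cast in both lines, with 78.8 to 90.2% in iXist-ChrX-Dom and 84.5 to 85.2% in iXist-ChrX-Cast.

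The ribosome and translation group had 6 members, with Mrpl38, Rpl27 and Rpl38 called in share and in Cast-assigned counts, and 0 in total. Rpl27, a protein of the large ribosomal subunit, had a Cast share of 48.4, 51.4, 42.7 and 45.2% against 35.7, 39.2 and 43.0%. The ranges overlapped in 1 library of each line (log2 0.45 ± 0.121, SE, limma adjusted p = 0.0135, and 0.104 without iXist-ChrX-Cast replicate 1). Rpl38, also of the large subunit, was separated, at 57.7 to 64.5% against 51.7 to 55.1% (limma adjusted p = 0.0105). Another gene overlaps Rpl38 on the opposite strand, and the counting was stranded. The totals of Rpl27 and Rpl38 were called with the replicate block (edgeR adjusted p = 0.0121 and 0.00115). Mrpl38, of the mitochondrial ribosome, had 55.8, 66.2, 61.8 and 59.8% against 44.3, 41.5 and 57.0% (log2 0.77 ± 0.227, SE, limma adjusted p = 0.0243). With 88 allele-assigned fragments in its thinnest library, its adjusted p rose to 0.0792 without iXist-ChrX-Dom replicate 2, 0.0552 without replicate 3, 0.109 without iXist-ChrX-Cast replicate 1 and 0.151 without replicate 2.

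Of 9 cell division genes, 4 were called higher in share (Anapc11, Birc5, Cdc27 and Kif18b), 7 in Cast-assigned counts (these 4 with Brca1, Kpna2 and Tk1) and 0 in total. Cdc27, a subunit of the anaphase-promoting complex, had a Cast share of 47.5, 49.6, 45.5 and 46.8% against 43.2, 41.8 and 42.9% (log2 0.27 ± 0.0648, SE, limma adjusted p = 0.00536). Cast-assigned fragments of Cdc27 were 67.4, 68.0, 64.3 and 63.6 CPM against 53.7, 49.1 and 42.5 CPM and separated. Dom-assigned fragments were 69.1 to 76.9 CPM against 56.5 to 70.5 CPM and overlapped. Brca1, a DNA repair factor, was not called in share, with 47.4 to 50.2% against 44.5 to 49.0% (limma adjusted p = 0.28, and 0.0382 without iXist-ChrX-Cast replicate 3). Kif18b, a mitotic kinesin, had 50.8 to 59.0% against 41.5 to 48.8%, and Birc5, the chromosomal passenger protein survivin, 50.7 to 56.6% against 43.0 to 47.2%.

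Proteasome and ubiquitin genes numbered 9, of which Nploc4, Smurf2 and Usp36 were called in share and in Cast-assigned counts, and Nploc4 in total. Nploc4, a cofactor of the p97 segregase, had totals of 102, 108, 103 and 108 CPM against 74.4, 72.9 and 77.2 CPM, with a gap wider than the range of either line (log2 0.51 ± 0.0937, SE, edgeR adjusted p = 0.025). That call was lost without iXist-ChrX-Dom replicate 2, 3 or 4 or iXist-ChrX-Cast replicate 1 or 2 (adjusted p 0.062 to 0.182). The Cast share of Nploc4 was 51.1, 56.1, 51.7 and 49.9% against 45.6, 44.5 and 41.6% (log2 0.48 ± 0.102, SE, limma adjusted p = 0.00221). Smurf2, a ubiquitin ligase of TGF-beta signalling, had a share of 48.6, 48.3, 48.1 and 45.1% against 40.0, 41.2 and 42.7% (limma adjusted p = 0.00316). Its total was separated and was called with the replicate block (edgeR adjusted p = 0.00918) and not without it (0.0905). Psmc5, Psmd12, Psme3, Sumo2, Ube2o and Gps1 were not called in share or total, and over the group the share difference ran from 2.95 to 8.31 points.

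Metabolic genes numbered 8, with Fasn, Gaa and P4hb called in share and 0 in total. Fasn, the fatty acid synthase, had Cast shares of 53.1, 54.3, 49.6 and 50.6% against 44.7, 44.5 and 45.2% (log2 0.41 ± 0.0722, SE, limma adjusted p = 0.000425). Its total of 337 to 416 CPM overlapped 258 to 357 CPM (edgeR adjusted p = 0.268). P4hb, protein disulfide isomerase, had 48.9 to 52.9% against 39.8 to 43.4%, and Gaa, lysosomal alpha-glucosidase, 52.9 to 61.9% against 42.2 to 51.8%. Acly, which supplies cytosolic acetyl-CoA, was separated but not called, at 44.9 to 50.2% against 42.5 to 44.7% (limma adjusted p = 0.067). The adjusted p of Acly was 0.0381 without iXist-ChrX-Dom replicate 3 and 0.0352 without iXist-ChrX-Cast replicate 3.

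Autophagy and membrane traffic genes numbered 8, with Becn1, Gosr2 and Rptor called in share and Nsf and Rptor in total. Rptor, the substrate adaptor of mTORC1, had totals of 377, 389, 370.3 and 458 CPM against 272, 228 and 290.2 CPM (log2 0.62 ± 0.130, SE, edgeR adjusted p = 0.0396). Of its allele-assigned fragments, 54.5, 56.1, 51.3 and 50.7% came from Cast in iXist-ChrX-Dom and 48.5, 45.6 and 47.2% in iXist-ChrX-Cast (limma adjusted p = 0.00222). Nsf, an ATPase of membrane fusion, was called in total and not in balance. Its totals were 184, 154, 179 and 198 CPM against 120.3, 108 and 130.1 CPM (log2 0.60 ± 0.123, SE, edgeR adjusted p = 0.0363). The shares of Nsf, 51.8, 53.1, 46.8 and 48.0% against 45.8, 48.3 and 46.4%, overlapped (limma adjusted p = 0.203). Both alleles of Nsf were on average higher, 1.62-fold for Cast and 1.43-fold for Dom. The total call of Rptor was lost without any library but iXist-ChrX-Cast replicate 3 (adjusted p 0.0721 to 0.22), and that of Nsf without iXist-ChrX-Dom replicate 1, 3 or 4 or iXist-ChrX-Cast replicate 1 or 2 (0.0787 to 0.214).

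Genes of other lineages were mostly below the depth, and 2 were members. Mapt, the neuronal tau protein, was expressed mainly from Cast in both lines, with 72.6, 76.8, 76.4 and 73.0% against 66.5, 66.8 and 70.3% (log2 0.48 ± 0.104, SE, limma adjusted p = 0.00267). Its total of 48.2 to 59.0 CPM overlapped 53.1 to 58.1 CPM. Pecam1, an adhesion protein present on mESCs, had overlapping shares, at 54.7 to 58.6% against 56.9 to 59.4% (limma adjusted p = 0.84). The total of Pecam1 was 55.6, 48.1, 94.0 and 94.3 CPM in iXist-ChrX-Dom and 36.8, 45.9 and 89.4 CPM in iXist-ChrX-Cast, so replicates 3 and 4 were the high libraries of each line.

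**Figure D5:**
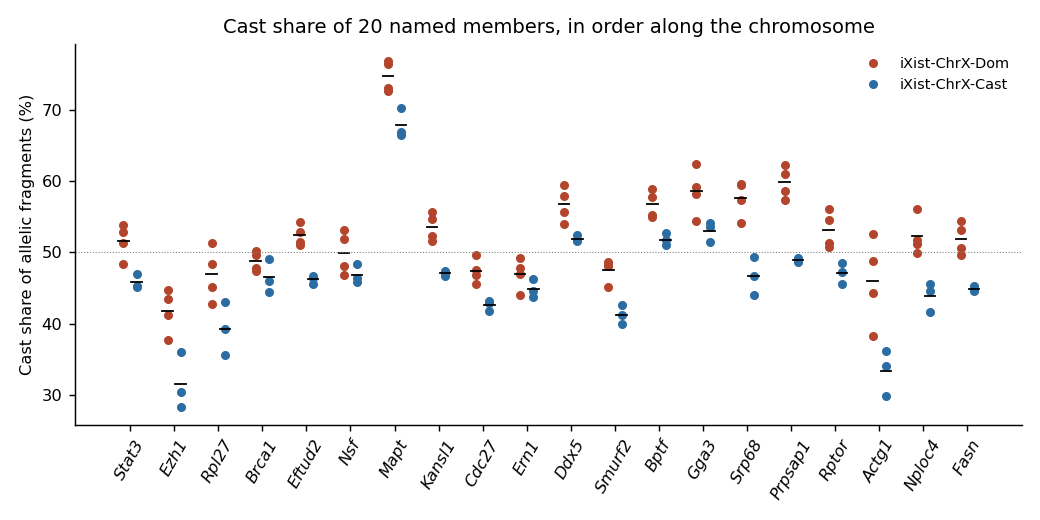
Cast share (percent, vertical axis) of 20 named members in order along the chromosome, with 1 point per library, iXist-ChrX-Dom in red and iXist-ChrX-Cast in blue, and the mean of each line as a bar. The means of iXist-ChrX-Dom lie above those of iXist-ChrX-Cast in all 20, and the points overlap for Rpl27, Brca1, Nsf and Ern1. The 20 were picked from the members named with tests, not by a rule. Among those not shown, Pecam1 had a lower mean in iXist-ChrX-Dom (−0.82 points), and Axin2, Notum, Cbx2 and Mrpl38 overlapped.

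The 5 members with the largest called rise in the allelic ratio all started beyond 115 Mb: Mrpl38, Rhbdf2, Actg1, Srp68 and Prpsap1. Prpsap1, a protein associated with the enzyme that makes the nucleotide precursor PRPP, had Cast shares of 61.0, 62.2, 58.5 and 57.4% against 49.3, 48.6 and 49.0%. The difference of 10.8 points was wider than the range of either line (log2 0.63 ± 0.108, SE, limma adjusted p = 0.000322). Its Cast-assigned level was 16.8, 18.8, 13.9 and 14.6 CPM against 9.45, 9.98 and 8.81 CPM. Its Dom-assigned level overlapped, at 10.7, 11.4, 9.83 and 10.8 CPM against 9.73, 10.5 and 9.15 CPM. The total of Prpsap1 was just past the threshold (log2 0.46 ± 0.106, SE, edgeR adjusted p = 0.0498), and not without any library but iXist-ChrX-Cast replicate 3 (adjusted p 0.105 to 0.221).

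Srp68, a protein of the signal recognition particle, had shares of 59.5, 57.3, 59.6 and 54.1% against 46.7, 44.1 and 49.3% (log2 0.63 ± 0.122, SE, limma adjusted p = 0.00102). Rhbdf2, an inactive rhomboid protease, had 57.8, 56.5, 52.3 and 53.3% against 39.7, 41.8 and 43.3% (log2 0.76 ± 0.179, SE, limma adjusted p = 0.00499), at a low depth of 58 fragments in the thinnest library. Actg1, cytoplasmic gamma-actin, had 38.2, 52.5, 44.3 and 48.7% against 29.9, 34.0 and 36.1% (log2 0.76 ± 0.156, SE, limma adjusted p = 0.00168). Actg1 has near-identical copies elsewhere in the genome, so its counts are uncertain. Its total overlapped, at 162 to 292 CPM against 181 to 222 CPM. In all 4 of Srp68, Rhbdf2, Actg1 and Prpsap1 the share was separated, whereas that of Mrpl38 overlapped through iXist-ChrX-Cast replicate 3.

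The 5 members with the largest called rise in total were Gga3, Rptor, Ern1, Nsf and Aspscr1. Gga3, an adaptor of Golgi sorting, had totals of 59.1, 61.3, 64.4 and 60.9 CPM against 37.0, 36.6 and 44.8 CPM (log2 0.65 ± 0.117, SE, edgeR adjusted p = 0.0226). Its share was separated but not called, at 54.4 to 62.4% against 51.4 to 54.1% (limma adjusted p = 0.0922, 0.0367 without iXist-ChrX-Dom replicate 4 and 0.029 with the replicate block). Ern1, the IRE1 sensor of the unfolded protein response, had 45.5, 43.8, 42.5 and 47.4 CPM against 31.8, 26.1 and 31.6 CPM (log2 0.60 ± 0.120, SE, edgeR adjusted p = 0.0327). Ern1 was the one member whose Dom-assigned counts were called (edgeR adjusted p = 0.0371). That Dom-assigned call was lost without any library but iXist-ChrX-Cast replicate 3. The Cast share of Ern1, 44.0 to 49.3%, overlapped 43.7 to 46.2% (limma adjusted p = 0.602). Aspscr1, a tether of the glucose transporter GLUT4, had 79.4, 91.1, 81.2 and 80.7 CPM against 51.9, 54.7 and 60.4 CPM (log2 0.59 ± 0.107, SE, edgeR adjusted p = 0.0228). The total calls of Gga3 and Aspscr1 were lost without iXist-ChrX-Dom replicate 2, 3 or 4 or iXist-ChrX-Cast replicate 1 or 2 (adjusted p 0.0577 to 0.164 and 0.0615 to 0.157), and that of Ern1 without any library but iXist-ChrX-Cast replicate 3 (0.068 to 0.198). Of the 10 named genes called in total, Cdk12 included, 0 kept the call through all 7 leave-outs, against 16 of the 21 called in the allelic ratio.

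Not all members shared the shift. The difference in share was at or below 0 in 10 members: Mrc2, Wipi1, Abca8b, Atxn7l3, Arsg, Map3k14, Pecam1, Etv4, Dusp3 and Cep112. These were listed after their values were seen, and in all 10 the lines overlapped. The largest was Mrc2, a collagen receptor, with 40.7, 49.3, 29.0 and 28.4% in iXist-ChrX-Dom against 41.8, 37.6 and 55.8%. The spread of Mrc2 within each line (SD 10.0 and 9.50 points) exceeded the difference of −8.22 points. Wipi1, a phosphoinositide-binding autophagy protein, had 43.8 to 50.5% against 49.5 to 55.3%. Of the 10, 3 (Wipi1, Abca8b and Arsg) start within 109 to 110 Mb. The members with the lowest mean Cast shares were Notum, Taco1 (16.6 against 12.8%) and Timp2 (19.7 against 15.8%), and 157 of the 177 stayed between 30 and 70% in every library. No member was under 10% or over 90% in all 7 libraries.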

How the data were processed

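ChrRNA-seq of 7 libraries (iXist-ChrX-Dom, n = 4, and iXist-ChrX-Cast, n = 3, grouped by their labels) was used. The authors removed rRNA with Bowtie2 2.3.2, aligned with STAR 2.4.2a to mm10 with parental SNPs masked (unique, at most 4 mismatches), split alleles with SNPsplit and deposited stranded featureCounts counts per gene: total, Cast and Dom. Deposited allelic fractions of X-linked genes served only to check which count column is which allele.

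The members, lists and alternatives were chosen with earlier results of these data known. Total, Cast-assigned and Dom-assigned counts were tested with edgeR 4.0.16 (quasi-likelihood, TMM from totals), and log2((Cast + 1)/(Dom + 1)) of autosomal genes with at least 50 allelic fragments in every library with limma 3.58.1 (R 4.3.3). Fits covered all genes passing the filters and all 7 libraries, p-values were adjusted by Benjamini-Hochberg and called under 0.05. DESeq2 1.42.0 was an alternative, and a GC correction, a limit at Cdk12 and medians of the share within each sample set were added after the data were seen. The tests were checked on simulated counts.

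Genes named are those on the function lists (tests given for the best covered), the 5 largest called rises in share and in total, and those beside the limits. Other genes are marked as chosen after their values were seen. Same-numbered libraries of the lines deviated together (r = 0.330, 0.275 and 0.467 for replicates 1, 2 and 3). The number was therefore used as a block in an alternative fit, where iXist-ChrX-Dom replicate 4 stands alone. The main fits between the lines held no term for the number and were unpaired. The correlations fall by sample set rather than by number: iXist-ChrX-Dom replicate 1 correlated best with iXist-ChrX-Cast replicate 2 (r = 0.385), replicate 2 with replicate 1 (0.325), and replicate 4 correlated with iXist-ChrX-Cast replicate 3 (0.506) more than replicate 3 did. The labels do not say what a number shares. Library totals were 14877384 to 24309806 fragments, which limits allelic precision to the median 201 to 468 fragments per member. Some listed genes are not reported here.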

Additional observations from a re-analysis of the deposited data

Results flagged for a closer look

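Of 92 groups of 4 iXist-ChrX-Dom libraries screened among the values above, 3 held a library far from the others, by Dixon's ratio of its gap to the whole range at the 95% level. Chance flags about 5 in 100 such groups. Replicate 2 stood apart in the total of Aspscr1 (91.1 CPM, the others 79.4 to 81.2 CPM). Replicate 4 stood apart in the total of Dhx8, an RNA helicase of splicing (69.6 CPM, the others 74.6 to 75.1 CPM), and in the Cast share of Smurf2 (45.1%, the others 48.1 to 48.6%). These 3 groups were not removed from any result.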

How the results depend on the processing

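The share calls stayed higher and within 1.5 times the 63 given in every alternative run. Total calls (23) were 47 with DESeq2, 63 with the replicate block, 75 with the sample set as covariate, 66 over replicates 1 and 2 alone and 0 to 55 without 1 library. Cast-assigned calls (69) were 117 with the replicate block, 115 with the covariate, 107 over replicates 1 and 2 and 36 to 97 without 1 library. Dom-assigned calls (1) were 2 without a filter, 16 with the replicate block, 23 with the covariate, 8 over replicates 1 and 2 and 0 to 7 without 1 library. For totals and for each allele, the share of all genes called also rose with the block, with the covariate and over replicates 1 and 2. That share rose without iXist-ChrX-Cast replicate 3 as well, and fell without any other 1 library. For totals it rose with DESeq2 as well. Total calls between sample sets (47) were 26 in iXist-ChrX-Dom alone, 22 without the line term and 24 to 49 without 1 library. Without 1 library, share calls between sets were 0 to 1, and the interaction could not be fitted without iXist-ChrX-Cast replicate 3.

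The median share of iXist-ChrX-Cast was 45.5% as a mean over genes and 46.9% for replicate 3 alone. The total difference (0.32) was 0.20 against chromosome 11 before 100 Mb, 0.39 over replicates 1 and 2, 0.17 over replicates 3 and 4 and 0.23 to 0.39 without 1 library. That of the Cast allele (0.49) was 0.60, 0.29 and 0.41 to 0.58, and that of the Dom allele (0.16) −0.034 against chromosome 11 before 100 Mb, 0.051 over replicates 3 and 4 and 0.09 to 0.24 without 1 library.

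Signs of small, uncalled gene differences also turned: without 1 library, Actg1 total ran from −0.055 (iXist-ChrX-Dom replicate 1) to 0.22, Axin2 share from −0.027 (iXist-ChrX-Cast replicate 1) to 0.19, Mapt total from −0.10 to 0.0082 (above 0 without iXist-ChrX-Dom replicate 2 or 3), Pecam1 share from −0.079 to 0.0016 (iXist-ChrX-Cast replicate 3) and Notum share from −0.14 (iXist-ChrX-Cast replicate 3) to 0.28, and Notum share was −0.067 with the replicate block. The cause was not tested. Among the named genes, other than the changes given, the replicate block moved no call from past the threshold to short of it. A limit 5 Mb earlier, 5 Mb later or at Cdk12 takes in 224, 125 or 188 genes, and a depth of 20 or 100 fragments 232 or 125.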
